A study of Mus musculus with 25 samples.

Results

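Arntl, Clock, Npas2, Per1, Per2, Per3, Cry1, Nr1d1, Nr1d2 and Dbp are 10 genes of the circadian clock. They were chosen by name, with earlier results of these data known, and their rows were taken from a table of 24537 genes. The table holds 25 liver libraries from male C57BL6/J mice of 24 months, made from polyA RNA of flash frozen tissue. The groups were Control_Rosa26KO (control diet, genotype Rosa26KO, 6 libraries), HFD_Rosa26KO (the diet labelled HFD, genotype Rosa26KO, 6 libraries), Control_p53KO (control diet, genotype p53KO, 6 libraries) and HFD_p53KO (HFD, genotype p53KO, 7 libraries). The labels used here do not say how either knockout was made or in which liver cells, do not describe the composition of the HFD, and do not say whether each library came from a separate animal, so p-values measure the spread between these libraries. The labels also number the libraries from 1941 to 1965. Numbers 1941 to 1948 are called run 1 here (8 libraries), 1949 to 1956 run 2 (8 libraries) and 1957 to 1965 run 3 (9 libraries). Each run holds 2 libraries of every group, except that run 3 holds 3 of HFD_p53KO, so the runs cross the groups. What the runs stand for, and at what time of day each liver was taken, is not given in the sources used here.

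The clock is a feedback loop of transcription that cycles over the day in most cells and strongly in the liver. ARNTL (also called BMAL1) pairs with CLOCK or its relative NPAS2 and activates genes through E-boxes. Among those genes are the Per and Cry genes, whose proteins repress the pair, the nuclear receptors Nr1d1 and Nr1d2 (REV-ERB alpha and beta), which repress Arntl, Npas2 and Cry1 through ROR elements (ROREs), and Dbp, an activator that binds D-boxes in genes such as Per3. In liver, Arntl and Npas2 mRNAs are known to peak at a different time of day from Nr1d1 and Dbp mRNAs, and the clock drives part of the daily rhythm of bile acid, glucose and lipid genes.

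The promoters below are shown because the loop acts through short elements of this kind, 4 of them for the matches they hold and that of Dbp as the gene with the largest difference between runs. They run from 250 bases before to 50 bases after an annotated start site in RefSeq on GRCm38.p6, 5′ to 3′ on the gene's strand, with matches in capitals. RefSeq promoters were matched for 9 of the 10 genes (13 start sites), without Per2. Arntl is at chr7:113207261-113207560 on the plus strand, Cry1 at chr10:85185005-85185304 on the minus strand, Nr1d1 at chr11:98775328-98775627 on the minus strand, Per3 at chr4:151044616-151044915 on the minus strand and Dbp at chr7:45704997-45705296 on the plus strand.
Arntl: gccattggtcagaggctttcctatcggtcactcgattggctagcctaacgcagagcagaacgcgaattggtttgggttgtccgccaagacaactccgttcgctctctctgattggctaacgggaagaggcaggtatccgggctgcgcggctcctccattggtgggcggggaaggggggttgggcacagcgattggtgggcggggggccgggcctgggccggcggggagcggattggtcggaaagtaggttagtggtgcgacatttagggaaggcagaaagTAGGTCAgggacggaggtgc
Cry1: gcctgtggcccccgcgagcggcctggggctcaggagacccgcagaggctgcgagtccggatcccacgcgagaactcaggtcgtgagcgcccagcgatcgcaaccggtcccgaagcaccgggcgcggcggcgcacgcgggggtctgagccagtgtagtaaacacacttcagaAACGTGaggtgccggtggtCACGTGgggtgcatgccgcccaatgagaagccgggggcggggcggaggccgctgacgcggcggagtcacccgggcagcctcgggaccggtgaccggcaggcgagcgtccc
Nr1d1: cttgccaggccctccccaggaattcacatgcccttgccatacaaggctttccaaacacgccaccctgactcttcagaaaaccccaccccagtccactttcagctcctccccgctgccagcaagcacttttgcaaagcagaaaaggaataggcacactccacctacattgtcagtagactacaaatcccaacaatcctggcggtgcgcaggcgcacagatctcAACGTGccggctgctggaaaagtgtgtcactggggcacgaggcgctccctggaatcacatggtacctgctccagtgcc
Per3: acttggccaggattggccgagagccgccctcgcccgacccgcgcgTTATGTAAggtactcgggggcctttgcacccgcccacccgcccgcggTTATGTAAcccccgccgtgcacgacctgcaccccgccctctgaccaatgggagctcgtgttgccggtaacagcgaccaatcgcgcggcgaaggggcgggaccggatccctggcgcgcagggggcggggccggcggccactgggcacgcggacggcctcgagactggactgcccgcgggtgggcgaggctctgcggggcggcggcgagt
Dbp: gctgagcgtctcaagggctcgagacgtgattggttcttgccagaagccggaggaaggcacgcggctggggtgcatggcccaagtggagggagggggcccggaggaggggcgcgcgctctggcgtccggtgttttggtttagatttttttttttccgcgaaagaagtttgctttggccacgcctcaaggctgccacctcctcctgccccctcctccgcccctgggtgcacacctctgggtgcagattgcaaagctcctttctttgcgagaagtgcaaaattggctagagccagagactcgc
The motifs searched, on both strands, were the E-box CACGTG, the E-prime-box CACGTT, the D-box TTATGTAA or TTACGTAA, and the RORE core TAGGTCA. The Arntl promoter held 1 RORE, 31 bases after the start site. The Cry1 promoter held an E-prime-box (on the other strand, so printed reversed and complemented) 79 bases before the start site and an E-box 60 bases before it. The Nr1d1 promoter held 1 E-prime-box, printed in the same way, 28 bases before the start site. In GENCODE release M21 the span of Nr1d1 starts at 98775333 on the minus strand, downstream of this RefSeq start site. The bases checked after that site were not found in a GENCODE transcript of Nr1d1, while those of every other window were found in one of its gene. The Per3 promoter held 2 D-boxes, 205 and 158 bases before its start site. A Per1 start site that is not printed had an E-box 166 bases upstream. The windows of Dbp, Npas2, Nr1d2 and Clock held none of these letters, which says nothing of binding outside them. The other windows of Arntl and Per1, also not printed, held none of them either. Of 32851 mouse promoters of the same length, 7.15% held the E-box, 4.68% the E-prime-box, 1.06% the D-box and 2.61% the RORE core. A match is a description of the letters and not a measured site.

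Total counts per library ran from 16324283 to 21501281, with medians by run of 20095771, 18776513 and 20076090. Levels are given as CPM, a gene's count relative to its library's total after TMM scaling, as mean ± SD. Trp53, the gene named in the p53KO genotype, was at 36.8 ± 4.80 CPM in Control_Rosa26KO (n = 6), 37.1 ± 4.56 in HFD_Rosa26KO (n = 6), 24.1 ± 6.89 in Control_p53KO (n = 6) and 26.0 ± 4.47 in HFD_p53KO (n = 7). Of the 13 p53KO libraries 2 lay inside the Rosa26KO range of 30.6 to 43.8 CPM, those labelled Control_p53KO 3 (35.6 CPM) and HFD_p53KO 7 (31.0 CPM), so that Trp53 does not set these 2 apart from Rosa26KO. All libraries are named by their labels, and without these 2 the clock genes called below were the same in every comparison by edgeR. Its log2 fold change between genotypes over both diets was -0.56 (SE 0.10), rank 1 of 14133 genes, with an unadjusted p of 1.48e-05 and an adjusted p of 0.210 by edgeR's quasi-likelihood test. Of 10 hepatocyte markers 9 were in the table, and none of them was at 0 in all 25 libraries. Summed neutrophil markers were high in Control_p53KO 1 (605 CPM), HFD_Rosa26KO 6 (395 CPM) and the library labelled Control_p53KO 3 (109 CPM). Summed acute phase genes were highest in Control_p53KO 1, Control_Rosa26KO 1, HFD_p53KO 2 and the library labelled HFD_p53KO 7, of which all but the last are in run 1. In bulk tissue, fewer cells of a type and less RNA per cell cannot be told apart.

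All 10 clock genes were measured in every library and passed the filter on low counts. The lowest count of any of them was 28 (Npas2 in the library labelled HFD_p53KO 7). Divided by the length of its exons in GENCODE release M21, Nr1d1 had the highest mean level over the 25 libraries, 34.9 CPM per kilobase, and Per3 the lowest, 1.08 ± 0.731. Between them stood Nr1d2 at 7.97 ± 2.56 CPM per kilobase, Dbp at 7.79 ± 7.24, Per2 at 3.47 ± 1.06, Per1 at 3.27 ± 1.81, Cry1 at 3.14 ± 0.936, Arntl at 3.13 ± 1.15, Clock at 2.28 ± 0.326 and Npas2 at 1.59 ± 0.855 (SD over 25 libraries). Nr1d1 ranged from 6.60 to 61.8 CPM per kilobase, so its range overlaps that of the next genes, and the neighbours from Per2 to Arntl in this order differed by far less than their SDs. The length joins the exons of all transcripts of a gene. The annotation used for counting is not given, so this order may depend on the length chosen. Exons of Nr1d1 overlap those of Thra on the opposite strand over 263 bases, those of Dbp overlap Sphk2 over 539 bases and those of Arntl overlap the antisense gene Gm45355 over 33 bases. Whether the counting used strand is not given in the sources used here, so some reads of these pairs may be shared.

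Dbp varied most among the libraries. Its lowest value was 1.68 CPM (Control_p53KO 1) and its highest 78.2 CPM (the library labelled HFD_p53KO 7), a 46.6-fold range. Clock varied least, from 23.3 to 42.2 CPM, a 1.81-fold range. The ranges were 11.3-fold for Per3, 11.1-fold for Per1, 9.37-fold for Nr1d1, 8.65-fold for Npas2, 4.21-fold for Arntl, 3.52-fold for Nr1d2, 2.84-fold for Cry1 and 2.82-fold for Per2. Of the variance of log2(CPM + 1) over the libraries, the run accounted for 66.6% in Nr1d1, 63.2% in Nr1d2, 62.3% in Dbp, 60.1% in Npas2, 45.1% in Per3 and 43.1% in Arntl. The same share was 27.4% in Cry1, 5.07% in Per1, 3.29% in Per2 and 2.77% in Clock. Diet accounted for 37.9% in Clock and for at most 14.4% (Arntl) in the other 9 genes, and genotype for at most 8.55% (Npas2) in all 10.

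**Figure D1:**
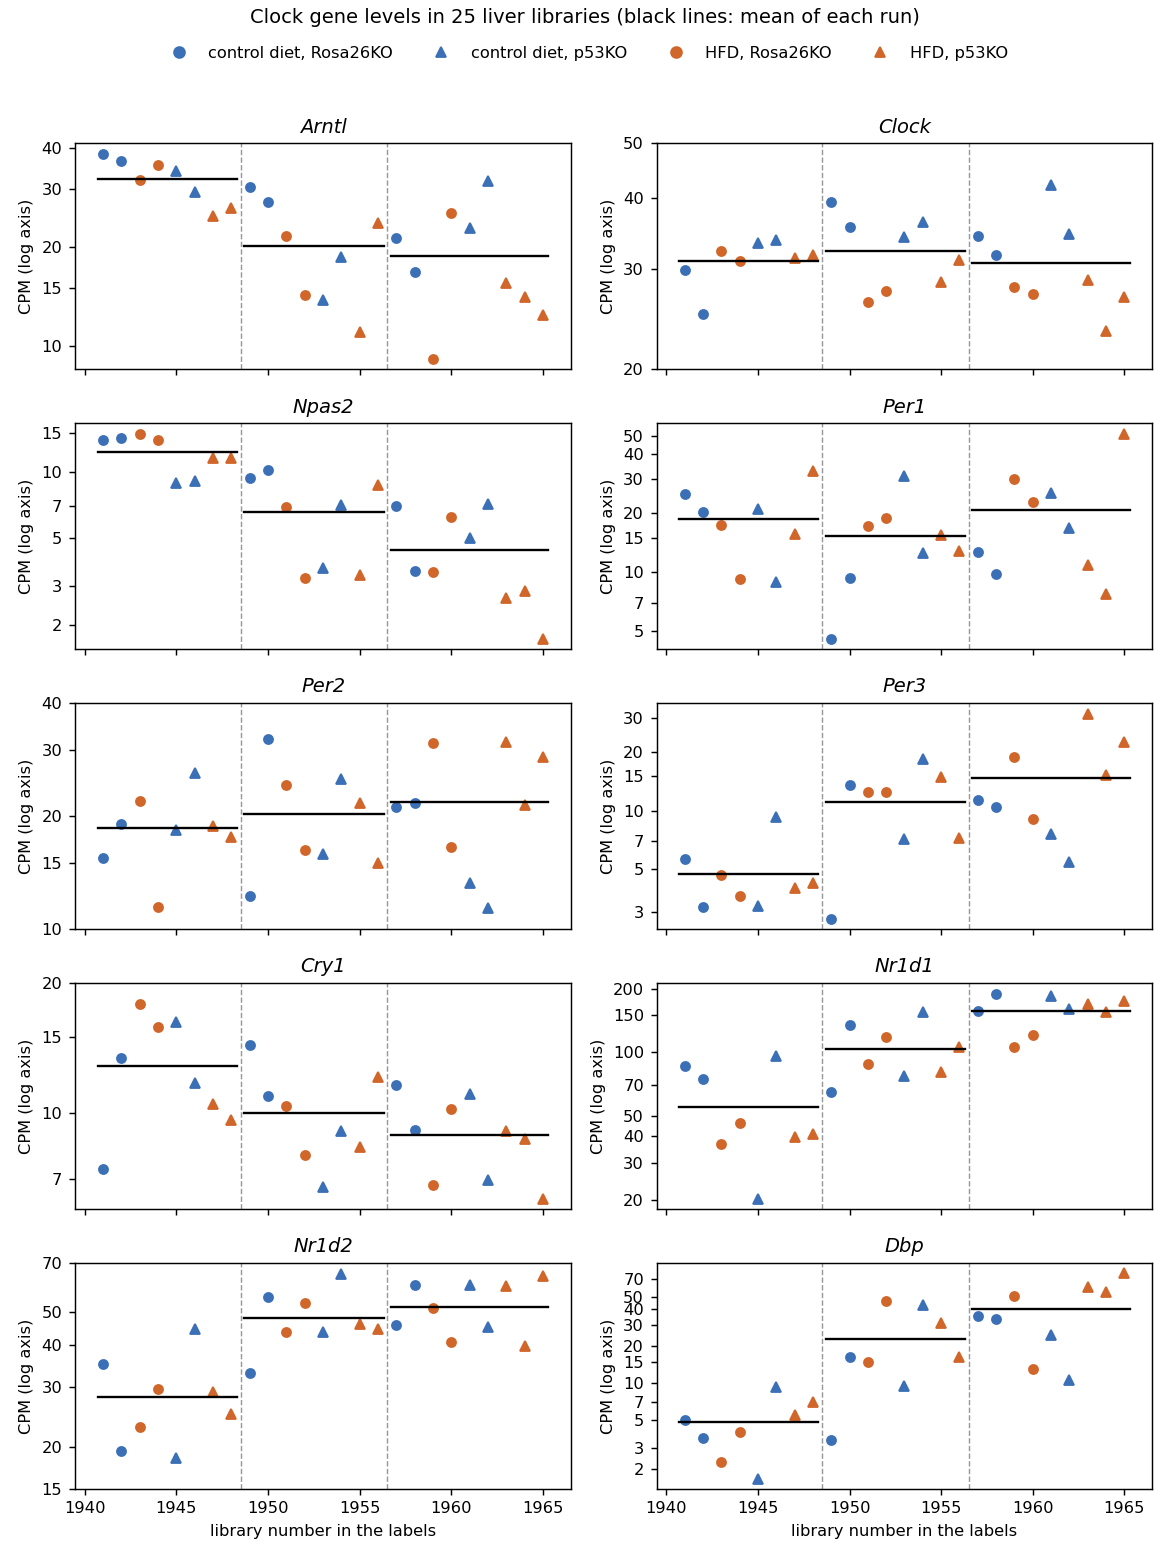
Level of each clock gene (CPM, log axis) in each of the 25 libraries against the library number in the labels, with diet by colour, genotype by symbol, dashed lines between the runs and black lines at the mean of each run. In each of the 4 groups the mean of run 1 is the lowest of the runs for Dbp, Nr1d1 and Nr1d2 and the highest for Npas2 and Arntl. Single libraries of these genes overlap between run 1 and the later runs.

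Between the runs of library numbers, Dbp, Nr1d1 and Nr1d2 were higher and Npas2 lower in run 3 than in run 1. These 4 of the 10 clock genes passed the test of any difference between runs (edgeR's quasi-likelihood test with a term for group, adjusted over 14233 genes, threshold 0.05), against 0.119% of all genes tested (17 genes). In the same test Nr1d1 ranked 3 by p (adjusted p = 0.0257), Dbp 7 (0.0309), Npas2 8 (0.0319) and Nr1d2 15 (0.0394). From run 1 to run 3 the same 4 genes passed against 0.569% of all genes, 3 higher against 0.239% of all genes and 1 lower against 0.33%. The median log2 fold change of the 10 clock genes was 0.11 and that of all genes tested -0.0060, since the clock genes moved in both directions. Because the clock genes were chosen with earlier results of these data known, these shares and ranks are a description and not independent support.

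Dbp, the D-box activator (chr7:45705088-45710203), showed the largest difference between runs of the 10. In run 1 it stood at 4.98 and 3.56 CPM in Control_Rosa26KO, 2.28 and 4.03 in HFD_Rosa26KO, 1.68 and 9.32 in Control_p53KO, and 5.55 and 7.08 in HFD_p53KO. In run 2 the values were 3.48 and 16.4 CPM in Control_Rosa26KO, 15.0 and 46.5 in HFD_Rosa26KO, 9.50 and 43.7 in Control_p53KO, and 31.1 and 16.4 in HFD_p53KO. In run 3 they were 35.4 and 33.4 CPM in Control_Rosa26KO, 51.3 and 12.97 in HFD_Rosa26KO, 24.6 and 10.6 in Control_p53KO, and 60.4, 55.4 and 78.2 in HFD_p53KO. All 9 libraries of run 3 were above all 8 of run 1. The means were 4.81 ± 2.52 CPM (n = 8), 22.8 ± 15.9 (n = 8) and 40.3 ± 22.7 (n = 9). Dbp rose from run 1 to run 3 by a log2 fold change of 2.94 (SE 0.47, 7.67-fold, adjusted p = 0.0115 by edgeR). Run 2 held 7 libraries above all of run 1, with Control_Rosa26KO 3 as the exception, and its log2 fold change against run 1 was 2.23 (SE 0.47, adjusted p = 0.104).

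Nr1d1 and Nr1d2, the RORE repressors, were also higher in the later runs. Nr1d1 (chr11:98767932-98775333) ran from 20.3 to 96.3 CPM in run 1 with a median of 43.6, from 65.0 to 156 in run 2 with a median of 97.1, and from 106 to 190.2 in run 3 with a median of 159.8. Every library of run 3 was above every library of run 1, and 7 of 9 were above all of run 2. Nr1d1 rose from run 1 (55.2 ± 27.0 CPM, n = 8) to run 3 (158 ± 28.2, n = 9) by a log2 fold change of 1.56 (SE 0.24, adjusted p = 0.0115 by edgeR), rank 1 of all 14233 genes. Nr1d2 (chr14:18204054-18239127) ran from 18.5 to 44.7 CPM in run 1 with a median of 27.0, from 33.0 to 65.1 in run 2 with a median of 45.4, and from 39.9 to 64.0 in run 3 with a median of 51.7. In run 3, 7 of 9 libraries were above all of run 1, the highest run 1 library being Control_p53KO 2. Nr1d2 rose by a log2 fold change of 0.90 (SE 0.16, adjusted p = 0.0170 by edgeR) from run 1 to run 3.

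Of the activators that pair in the loop, Npas2 was lower in the later runs. Npas2 (chr1:39193731-39363236) ran from 8.91 to 15.0 CPM in run 1 with a median of 12.8, from 3.28 to 10.2 in run 2 with a median of 6.97, and from 1.73 to 7.11 in run 3 with a median of 3.53. All 9 libraries of run 3 were below all 8 of run 1. Npas2 fell by 1.48 on the log2 scale from run 1 to run 3 (SE 0.25, adjusted p = 0.0143 by edgeR). Arntl (chr7:113207465-113314126) stood at 32.2 ± 4.92 CPM in run 1 (n = 8), 20.1 ± 6.92 in run 2 (n = 8) and 18.8 ± 7.12 in run 3 (n = 9). In run 3, 7 of 9 Arntl values were below all of run 1, the log2 fold change was -0.75 (SE 0.19), and the adjusted p of 0.0718 missed the threshold. Clock (chr5:76209868-76304792) stood at 31.1 ± 2.75, 32.4 ± 4.76 and 30.7 ± 5.67 CPM in the 3 runs, with a log2 fold change of -0.02 from run 1 to run 3 (95% interval -0.18 to 0.14).

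By edgeR over all libraries, none of the Per and Cry repressors passed between runs. Per3 (chr4:151003652-151044665) stood at 4.74 ± 1.99 CPM in run 1, 11.1 ± 5.03 in run 2 and 14.6 ± 8.36 in run 3, and 6 of 9 libraries of run 3 were above all of run 1. Its log2 fold change from run 1 to run 3 was 1.51 (SE 0.36, adjusted p = 0.0533 by edgeR, 0.00201 by DESeq2 and 0.0371 by limma voom), so that its call depended on the tool. Cry1 (chr10:85131700-85185064) stood at 12.8 ± 3.65, 9.99 ± 2.49 and 8.86 ± 1.89 CPM, a log2 fold change of -0.51 (SE 0.17, adjusted p = 0.123). Per1 (chr11:69095217-69109960) and Per2 (chr1:91415982-91459324) had log2 fold changes of 0.03 (95% interval -0.69 to 0.75) and 0.20 (95% interval -0.24 to 0.63), and that of Per1 was -0.26 without the libraries labelled Control_p53KO 3 and HFD_p53KO 7. Per1, which also responds to glucocorticoids, reached its highest value of 51.1 CPM in the library labelled HFD_p53KO 7 and its lowest of 4.59 CPM in Control_Rosa26KO 3.

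**Figure D2:**
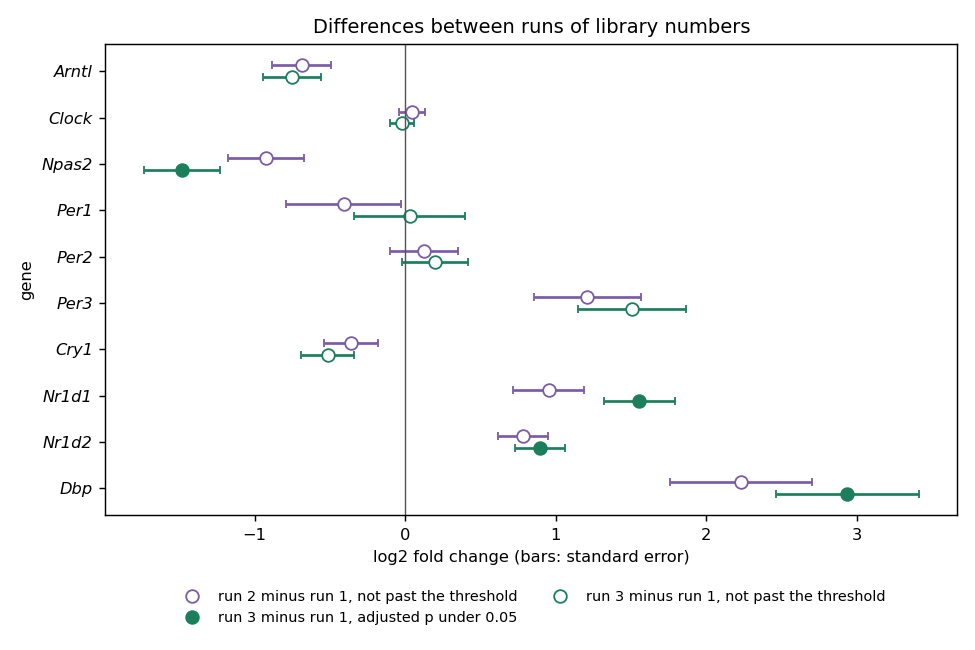
Log2 fold change with its standard error for each clock gene in run 2 against run 1 and in run 3 against run 1, with filled circles where the adjusted p was under 0.05. Filled circles stand at Npas2 to the left of 0 and at Nr1d1, Nr1d2 and Dbp to the right, all for run 3 against run 1.

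The mean of run 2 stood between those of runs 1 and 3 for every clock gene but Clock and Per1. By edgeR none of the 10 clock genes passed between runs 1 and 2 (0.00703% of all genes passed). An unadjusted p under 0.05 was found for 6 of them and for 2305 of all 14233 genes. DESeq2 called 6 there (Arntl, Dbp, Npas2, Nr1d1, Nr1d2 and Per3, against 1.68% of all genes) and limma voom 4 (against 1.46%). Between runs 2 and 3 none passed by edgeR, DESeq2 or limma voom. By edgeR 2 had an unadjusted p under 0.05, as did 1936 of all 14233 genes. Of all genes 0% passed there by edgeR and limma voom and 0.112% by DESeq2. From run 1 to run 3, DESeq2 and limma voom both called the same 6 genes, Arntl and Per3 added to the 4 of edgeR, against 4.61% and 2.02% of all genes.

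The calls between runs 1 and 3 depended on which libraries were used. Without the 4 libraries highest in acute phase genes, the log2 fold changes were 2.86 for Dbp, 1.40 for Nr1d1, -1.45 for Npas2 and 0.82 for Nr1d2. Their adjusted p ran from 0.0813 to 0.145 by edgeR. None of the 10 clock genes passed, and 0% of all genes did. An unadjusted p under 0.05 was found for 7 of the 10 and for 1549 of all 14400 genes. Summed acute phase genes had medians of 11624, 6415 and 7910 CPM in the 3 runs, with 57122 CPM as the highest value of run 1. Between runs 1 and 3, 0 of 10 acute phase genes passed by edgeR (0.569% of all genes passed). An unadjusted p under 0.05 was found for 8 of the 10 and for 3147 of all 14233 genes. The median log2 fold change of the 10 acute phase genes was -1.70. Their part in the result was not tested. With control diet libraries alone the 4 log2 fold changes were 2.47 for Dbp, 1.32 for Nr1d1, -0.97 for Npas2 (-1.48 with all libraries) and 0.86 for Nr1d2. None of them passed, and 0% of all genes did. With HFD libraries alone they were 3.41, 1.82, -1.91 and 0.96, and Nr1d1 and Per3 passed, against 0.0426% of all genes. With any 1 library left out, 3 to 6 clock genes still passed between runs 1 and 3, and only Nr1d2 was lost (without HFD_p53KO 2). Over the same fits, 10 to 495 of all genes passed. The test of any difference between runs was less stable, with 0 clock genes passing without Control_Rosa26KO 2 or 6, HFD_Rosa26KO 1 or 2, or HFD_p53KO 1 or 2, 1 without Control_p53KO 1 or Control_Rosa26KO 5, and 2 without Control_p53KO 5 or HFD_p53KO 5. In that test 0 to 110 of all genes passed over the 25 fits with 1 library left out.

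Many pairs of clock genes were correlated over the libraries. The log2 ratio of Dbp to Arntl had a median of -3.05 in run 1 (from -4.34 to -1.66), -0.53 in run 2 (from -3.13 to 1.70) and 0.99 in run 3 (from -1.58 to 2.66). Of 45 pairs of clock genes, 25 had a correlation over the 25 libraries that passed after Benjamini-Hochberg adjustment, 11 positive and 14 negative (permutation test of Pearson's r on log2(CPM + 1), 2-sided). The smallest p that 100000 permutations can give is 1e-05. The share of passing pairs among other genes was not computed. The permutations mixed libraries of all runs, so any pair that shares a difference between runs can pass. Libraries of 1 run share whatever the run stands for, so each pair below is also given within the runs, with exact permutation tests. The pairs below were picked by hand and are only a part of those that passed. Not every passing pair kept its sign within the runs. Arntl and Nr1d1 passed as a negative pair (r = -0.458, adjusted permutation p = 0.0399). Their correlation was 0.230, 0.0568 and 0.256 within runs 1, 2 and 3.

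Per3 and Dbp, a D-box gene and a D-box activator, had the highest correlation (r = 0.915, rho = 0.925, permutation p = 1e-05, adjusted 5.62e-05). It was 0.912 without the 2 libraries farthest from the median, and 0.668, 0.881 and 0.882 within runs 1, 2 and 3 (exact p = 0.0668, 0.00439 and 0.00167). The activators Arntl and Npas2 followed each other (r = 0.889, rho = 0.882, permutation p = 1e-05, 0.911 without 2 libraries), with 0.406, 0.954 and 0.797 within the runs (exact p = 0.309, 0.000595 and 0.0112). Arntl and Dbp were opposed (r = -0.826, rho = -0.838, permutation p = 2e-05, -0.84 without 2 libraries), with -0.479, -0.573 and -0.87 within the runs (exact p = 0.230, 0.137 and 0.00207). Nr1d1 and Nr1d2 went together (r = 0.867, rho = 0.842, permutation p = 1e-05, 0.799 without 2 libraries), with 0.665, 0.932 and 0.522 within the runs (exact p = 0.0707, 0.000521 and 0.162).

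Npas2 and Nr1d1 were opposed over all libraries (r = -0.605, rho = -0.655, permutation p = 0.00133, -0.547 without 2 libraries). Within the runs their correlation was 0.236, 0.190 and -0.202 (exact p = 0.565, 0.643 and 0.595), so this relation did not hold within runs. Arntl and Cry1 gave r = 0.659 (rho = 0.645, permutation p = 0.00057, 0.616 without 2 libraries) and 0.170, 0.886 and 0.457 within the runs (exact p = 0.681, 0.00414 and 0.215). Nr1d1 and Dbp gave r = 0.809 (rho = 0.798, permutation p = 1e-05, 0.743 without 2 libraries) and 0.658, 0.719 and 0.132 within the runs (exact p = 0.0742, 0.0414 and 0.752).

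**Figure D3:**
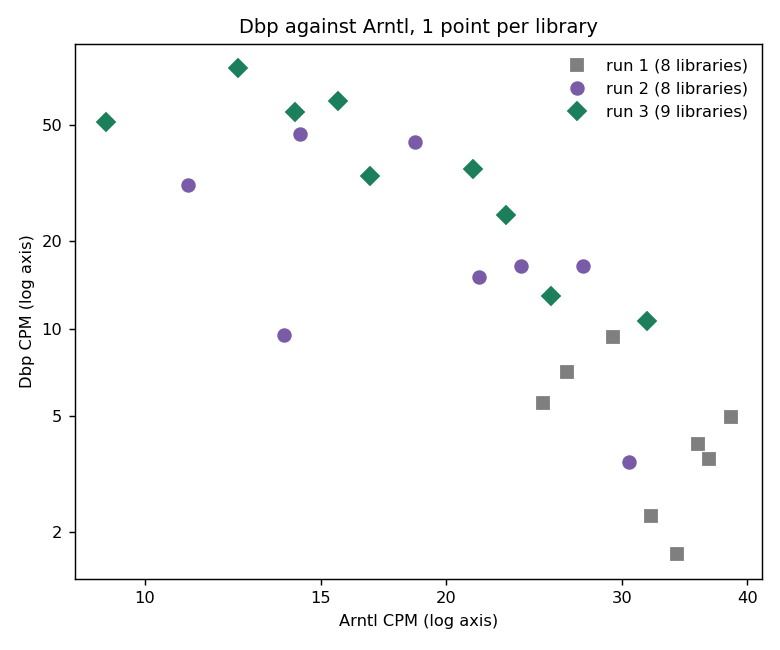
Dbp against Arntl in CPM on log axes, 1 point per library, with a symbol for each run. The 8 libraries of run 1 lie at high Arntl (24.99 to 38.5 CPM) and low Dbp (1.68 to 9.32 CPM), and those of runs 2 and 3 spread towards low Arntl and high Dbp.

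Diet changed 1 of the 10 clock genes. Clock, the partner of ARNTL, fell on HFD when the diets were compared over both genotypes, against 9.71% of all 14133 genes passing in that comparison (4.64% higher and 5.07% lower), so that 1 of 10 is a share near that of all genes. Clock ran from 24.99 to 42.2 CPM on the control diet (median 34.2, 34.2 ± 4.36, n = 12) and from 23.3 to 32.3 CPM on HFD (median 28.4, 28.7 ± 2.65, n = 13). It fell by 0.25 on the log2 scale (SE 0.07, adjusted p = 0.0174 by edgeR), and passed in all other fits of this comparison that were run. Within Rosa26KO the log2 fold change was -0.19 (SE 0.09, adjusted p = 0.309) and within p53KO -0.31 (SE 0.09, adjusted p = 0.0601), so that 0 of 10 clock genes passed in either (0 and 1 at an unadjusted p under 0.05). Within Rosa26KO 1.51% of all genes passed (0.446% higher, 1.06% lower) and within p53KO 2.87% (1.62% higher, 1.25% lower). An unadjusted p under 0.05 was found for 2467 and 2661 of all 14133 genes by edgeR. DESeq2 called Clock in p53KO and limma voom called it in both. Marker genes of cell types moved in the same diet comparison. By edgeR 5 of 9 hepatocyte markers fell on HFD (median log2 fold change -0.63), and their summed level had group medians of 148360 CPM (Rosa26KO) and 142208 CPM (p53KO) on the control diet against 92505 and 72137 CPM on HFD. Of 7 erythroid markers 4 rose (median 1.26), with summed levels from 717 to 1906 CPM on the control diet and from 923 to 8254 CPM on HFD. Their part in the fall of Clock was not tested.

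The diet difference of Clock was also computed within each run. In run 1 the control diet values were 29.9, 24.99, 33.4 and 33.8 CPM and the HFD values 32.3, 31.1, 31.3 and 31.8 CPM, a difference of 0.06 in mean log2(CPM + 1). In run 2 they were 39.4, 35.7, 34.2 and 36.4 CPM on the control diet and 26.3, 27.4, 28.4 and 31.1 on HFD, a difference of -0.35. In run 3 they were 34.3, 31.7, 42.2 and 34.7 CPM on the control diet and 27.9, 27.1, 28.7, 23.3 and 26.8 on HFD, a difference of -0.40. The diets overlapped in run 1 and did not overlap in runs 2 and 3. The test of this difference (runs 2 and 3 against run 1) gave -0.44 on the log2 scale (SE 0.11, unadjusted p = 0.000693, rank 4 of 14694 genes) and did not pass after adjustment (adjusted p = 0.998 by edgeR, 0% of all genes passed and 606 had an unadjusted p under 0.05).

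**Figure D4:**
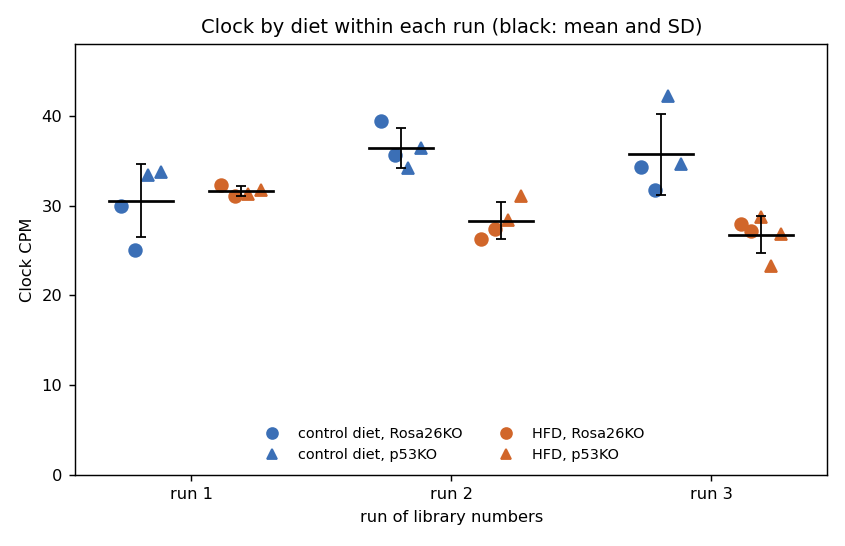
CPM of the gene Clock in each library by run and diet, with genotype by symbol and black bars for the mean and SD of 4 or 5 libraries. Control diet and HFD overlap in run 1, while in runs 2 and 3 all HFD libraries lie below all control diet libraries.

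The other 9 clock genes did not pass between diets, nor did any of them have an unadjusted p under 0.05. By edgeR 3428 of all 14133 genes had an unadjusted p under 0.05 in this comparison. Dbp stood at 16.4 ± 14.4 CPM on the control diet (n = 12) and 29.7 ± 25.6 on HFD (n = 13), a log2 fold change of 0.79 (95% interval -0.31 to 1.89, adjusted p = 0.420 by edgeR). Per3 stood at 8.16 ± 4.70 and 12.4 ± 8.33 CPM, a log2 fold change of 0.56 (95% interval -0.15 to 1.27). Arntl stood at 26.8 ± 8.06 and 20.5 ± 8.38 CPM, a log2 fold change of -0.38 (95% interval -0.79 to 0.03). The intervals of these genes hold changes in either direction, so the data do not show that their levels were alike on the 2 diets.

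No clock gene passed between genotypes. By edgeR 0 of 10 passed over both diets and 0 had an unadjusted p under 0.05, against 573 of all 14133 genes. DESeq2 and limma voom also called 0, and 0% of all genes passed by edgeR. Npas2 had the largest difference, a log2 fold change of -0.47 (SE 0.32, adjusted p = 0.966). By group, Dbp was highest in HFD_p53KO at 36.3 ± 28.7 CPM (n = 7, from 5.55 to 78.2), followed by HFD_Rosa26KO at 22 ± 21.4 (n = 6, from 2.28 to 51.3), Control_p53KO at 16.6 ± 15.2 (n = 6, from 1.68 to 43.7) and Control_Rosa26KO at 16.2 ± 14.9 (n = 6, from 3.48 to 35.4). The 4 groups overlapped throughout this order. Nr1d1 stood at 118 ± 50.5, 86.1 ± 36.4, 116 ± 62.1 and 109.7 ± 58.4 CPM in Control_Rosa26KO, HFD_Rosa26KO, Control_p53KO and HFD_p53KO. Npas2 stood at 9.72 ± 4.11, 8.13 ± 5.11, 6.80 ± 2.15 and 6.06 ± 4.38 CPM in the same order, and Arntl at 28.5 ± 8.51, 23.1 ± 10.2, 25.1 ± 7.97 and 18.3 ± 6.48 CPM. The interaction of diet and genotype passed for 0 of 10 clock genes by edgeR, DESeq2 and limma voom, with 0 at an unadjusted p under 0.05 in each and 0% of all genes passing by edgeR. Of all 14133 genes 1221 had an unadjusted p under 0.05 for the interaction by edgeR.

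**Figure D5:**
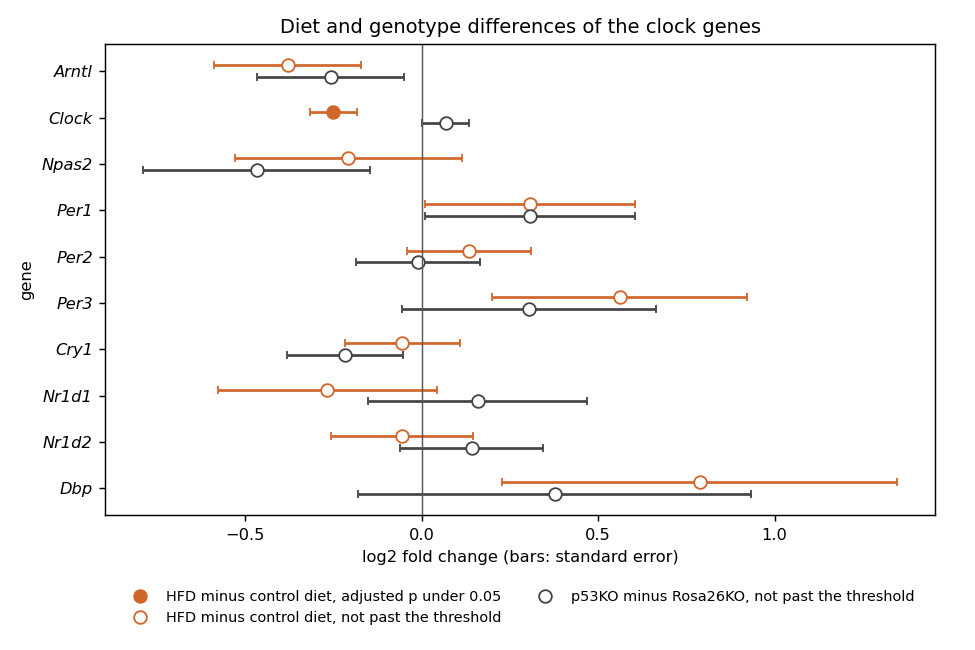
Log2 fold change with its standard error for each clock gene between the diets (over both genotypes) and between the genotypes (over both diets), with filled circles where the adjusted p was under 0.05. The single filled circle is the diet difference of Clock at -0.25.

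Of 18 further genes of the clock, 17 passed the filter, and by edgeR 1 of them, Tef, passed in the test of any difference between runs (0.119% of all genes passed). DESeq2 and limma voom each called 3 there (Bhlhe41, Ciart and Tef), against 3.78% and 1.52% of all genes. From run 1 to run 3 DESeq2 also called Fbxw11. Tef encodes an activator of the same family as DBP. It ran from 31.6 to 68.5 CPM in run 1 with a median of 38.4, from 44.4 to 107 in run 2 with a median of 68.6, and from 57.6 to 136 in run 3 with a median of 94.97. Of its run 3 values, that of Control_p53KO 6 (57.6 CPM) lay below the highest of run 1. Tef rose by a log2 fold change of 1.19 (SE 0.19, adjusted p = 0.0115 by edgeR) from run 1 to run 3, and its adjusted p was 0.138 without the 4 libraries highest in acute phase genes (log2 fold change 1.15). The repressors Ciart and Bhlhe41, both at a few CPM or less, had log2 fold changes of 1.86 (SE 0.46, adjusted p = 0.0594) and 1.06 (SE 0.25, adjusted p = 0.0530), both by edgeR. Fbxw11, part of a ubiquitin ligase, had -0.19 (SE 0.06, adjusted p = 0.107), and Timeless -0.27 (SE 0.14, adjusted p = 0.247), also by edgeR. Rora, an activator at ROREs, fell on HFD by 0.33 on the log2 scale (SE 0.09, adjusted p = 0.0218 by edgeR), from 52.8 ± 9.33 CPM (n = 12) to 42.0 ± 5.63 CPM (n = 13). By edgeR and DESeq2 it was the 1 of the 17 that passed between diets, against 9.71% and 12.7% of all genes. Limma voom called 3 (Fbxw11, Gsk3b and Rora) against 35.4%.

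Genes known to be driven by the liver clock did not pass between runs by edgeR (0 of 21, of which 6 had an unadjusted p under 0.05 in the test of any difference). DESeq2 called 2 of them there (Nampt and Upp2), against 3.78% of all genes, and limma voom 3 (Nampt, Rgs16 and Upp2), against 1.52%. By edgeR 0.119% of all 14233 genes passed that test and 3026 had an unadjusted p under 0.05, for comparison with this list and those that follow. From run 1 to run 3, Upp2 had a log2 fold change of 1.40 (SE 0.37, adjusted p = 0.0766 by edgeR) and Rgs16 of 2.09 (SE 0.73, adjusted p = 0.127). Genes that respond to temperature, such as Cirbp and the heat shock genes, passed in 0 of 11 cases by edgeR, DESeq2 and limma voom in the test of any difference, with 1 at an unadjusted p under 0.05 by edgeR. Genes of fasting and glucocorticoids passed in 0 of 12 cases by each of the 3 tools (3 at an unadjusted p under 0.05 by edgeR), and genes of lipid synthesis after feeding in 0 of 11 by edgeR and DESeq2 (5 at an unadjusted p under 0.05) and in 1 by limma voom (Thrsp). Their median log2 fold changes from run 1 to run 3 were 0.21 for the clock-driven genes, -0.01 for the temperature genes, 0.0035 for the fasting genes and 0.03 for the lipid synthesis genes.

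Among 12948 genes with a mean of at least 1 CPM, those whose log2 CPM was most like Dbp over the 25 libraries were Tef (r = 0.956), Pcsk4 (0.838), Pfdn2 (0.829), Tbc1d10a (0.816) and Pts (0.800). The most opposed to Dbp were Ppard (-0.872), Desi2 (-0.869), Mgat5 (-0.829), Loxl4 (-0.826) and Rnf144a (-0.811). Most like Arntl were Ppard (0.858), Loxl4 (0.829), Lgalsl (0.828), Chka (0.823) and Rnf144a (0.813), so that Ppard, Loxl4 and Rnf144a stood at the far end from Dbp and near Arntl. The most opposed to Arntl were Ciart (-0.780), Tef (-0.768), A930033H14Rik (-0.753), Usp2 (-0.740) and Rrp9 (-0.733). Within runs 1, 2 and 3, Tef kept r of 0.802, 0.936 and 0.894 with Dbp, and Ppard r of 0.865, 0.819 and 0.832 with Arntl. These genes were picked for their correlation, so their values are a description.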

How the data were processed

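RNA-seq libraries were made from liver polyA RNA with the Watchmaker mRNA kit and sequenced on an AVITI instrument, per the labels' protocols. The authors deposited 1 table of raw counts per gene and library. Reads were processed with STAR and HOMER on GRCm38 (mm10), per the submitters' processing notes. Tool versions, annotation and strand setting were not given in the sources used here. The members and gene lists were chosen with earlier results of these data known.

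Counts were analysed with edgeR 4.0.16 in R 4.3.3 (filterByExpr with min.count 10 and min.total.count 15, TMM scaling, robust quasi-likelihood fit, 2-sided tests, Benjamini-Hochberg adjustment over all genes, threshold 0.05). All 25 libraries entered 3 models. The first had a mean per group (14133 genes), the second added a term for the run of library numbers (14233 genes) and the third had a mean for each group in each run (14694 genes). Standard errors were derived from the fold change and the F statistic, and 95% intervals from them by a normal approximation. These intervals are somewhat narrower than the quasi-likelihood test implies, so one that ends near 0 can disagree with its p-value. Correlations and shares of variance used log2(CPM + 1). All libraries stayed in. The lowest chi-square per degree of freedom between 2 libraries of a group was 11.6, so none was counted as a repeat. Alternatives were RLE scaling, no filter, DESeq2 1.42.0, limma 3.58.1 voom with quality weights, a term for run or for replicate number, no term for group, each diet alone and each library left out. Leaving out libraries high in neutrophil markers or in acute phase genes, or the 2 p53KO libraries inside the Rosa26KO range of Trp53, was added after the data were seen. The scripts were tested on simulated data.

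The text names all 10 clock genes. It also names from each other list up to 5 members with the smallest p in the test of run, any member that passed between diets or genotypes, and the 5 genes most like and most opposed to Dbp and Arntl. One item under this rule is not reported here. Promoters came from RefSeq (GRCm38.p6), gene positions and exon lengths from GENCODE release M21.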

Additional observations from a re-analysis of the deposited data

Results flagged for a closer look

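Of 40 sets of values (10 clock genes in 4 groups), 1 held a library far from the others of its group. The cut-off was not corrected for the 40 sets, so 1 flag may arise by chance. Clock in Control_p53KO 5 was at 42.2 CPM. The next of the 6 libraries of that group was at 36.4 CPM and the lowest at 33.4 CPM, so the gap to the next value was 0.661 of the whole range of the group. With any 1 library left out, this one included, the diet difference of Clock stayed between -0.28 and -0.22 on the log2 scale, with adjusted p between 0.00298 and 0.0354 by edgeR.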

How the results depend on the processing

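Between diets, Clock passed under every alternative that was run (adjusted p from 0.00127 with limma voom to 0.0354 with 1 library left out), and no other clock gene did. Between genotypes no alternative called a clock gene. The calls between runs depended more on the settings. From run 1 to run 3 the 4 clock genes became 6 with DESeq2 and with limma voom, 5 without the libraries high in neutrophil markers, 2 with HFD libraries alone, and 0 with control diet libraries alone or without the 4 libraries highest in acute phase genes. For any difference between runs, 4 became 6 with DESeq2 and with limma voom, 1 with HFD libraries alone, 0 with control diet libraries alone and 0 without the 4 acute phase libraries. From run 1 to run 2, 0 became 6 with DESeq2 and 4 with limma voom. Within a genotype, Clock passed between diets in Rosa26KO with limma voom (1) and in p53KO with DESeq2 (1) and limma voom (1). The single-diet fits have fewer libraries, and so do those without 4 libraries. Otherwise the cause was not tested.

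With each library left out in turn, clock genes called ranged from 0 to 5 for any difference between runs, from 0 to 2 from run 1 to run 2 (2 without Control_p53KO 2), and from 0 to 1 for HFD in p53KO (1 without Control_Rosa26KO 2 or 3). All genes called ranged from 0 to 110, from 0 to 12 and from 173 to 760 in the same order. Values near 0 changed sign. Over the libraries left out, Cry1 between diets ranged from -0.139 to 0.032, Nr1d2 between diets from -0.138 to 0.0108, Per2 between genotypes from -0.0742 to 0.0761, Clock from run 1 to run 2 from -0.0122 to 0.0762 and Per2 from -0.0239 to 0.25, Clock from run 1 to run 3 from -0.0742 to 0.0133 and Per1 from -0.29 to 0.18, Arntl from run 2 to run 3 from -0.172 to 0.0755 and Per2 from -0.0411 to 0.227.

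Other log2 fold changes that changed sign were Cry1 between diets (0.0326 with limma voom, 0.00136 without the neutrophil libraries, 0.0233 without the acute phase libraries), Per3 between genotypes (-0.11 with limma voom), Clock from run 1 to run 2 (-0.0206 with limma voom, -0.15 with HFD alone), Clock, Per1 and Per2 from run 1 to run 3 with control diet alone (0.23, -0.39 and -0.26), Per1 there without the 2 p53KO libraries inside the Rosa26KO range of Trp53 (-0.255), Arntl, Per2 and Per3 from run 2 to run 3 with control diet alone (0.0872, -0.36 and -0.24), and Per2 from run 2 to run 3 with limma voom (-0.0019). None of these passed. The correlations that follow cover only the pairs tested within the runs. Correlations past the threshold over all libraries that missed it within a run were, for Arntl with Npas2, 0.406 in run 1, with Cry1 0.170 in run 1 and 0.457 in run 3, with Dbp -0.479 and -0.573 in runs 1 and 2; for Per3 with Dbp 0.668 in run 1; for Nr1d1 with Nr1d2 0.665 and 0.522 and with Dbp 0.658 and 0.132 in runs 1 and 3; and for Npas2 with Nr1d1 0.236, 0.190 and -0.202, the first 2 reversed.

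Counts over all genes moved too. The 81 genes from run 1 to run 3 became 656 with DESeq2, 288 with limma voom, 46 with no filter and 19 with no term for group. They became 0 without the acute phase libraries or with control diet libraries alone. The 17 of any run became 538 with DESeq2 and 216 with limma voom. These became 0 without the acute phase libraries or with control diet libraries alone, and 2 with HFD libraries alone. The 1 from run 1 to run 2 became 239 with DESeq2 and 208 with limma voom. The 1372 between diets became 5010 with limma voom and 2500 without the neutrophil libraries. Without the 2 p53KO libraries inside the Rosa26KO range of Trp53 there were 2891 between diets, 676 in Rosa26KO, 1028 in p53KO, 1 between genotypes and 0 from run 1 to run 2. The 213 of HFD in Rosa26KO became 615, 3038 and, with a run term, 430, and the 405 in p53KO became 907, 2189 and 630. Same-numbered libraries of different groups had a correlation of deviations over 0.1 in 17 of 36 pairs (median 0.060). Pairs of the same run with different numbers had it in 19 of 42 (median 0.092), and pairs from different runs in 41 of 156 (median -0.064). Same-numbered pairs thus had values close to those of other pairs of their run, and both had a higher median than pairs from different runs. Of 25 libraries 8 correlated best with their own number. With the replicate number as a block, 2269 genes passed between diets, 529 in Rosa26KO, 774 in p53KO and 1 between genotypes, the clock genes called were 1 (Clock, adjusted p = 0.0300) and 0, and Nr1d1 between genotypes went to -0.0304.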

Other observations

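Genes outside the core loop that the liver clock is known to drive changed between the diets in both directions. Of 21 tested, 3 rose on HFD and 3 fell, by edgeR over both genotypes, where 4.64% of all genes rose and 5.07% fell. DESeq2 called 7 of the 21 (12.7% of all genes) and limma voom 13 (35.4%). By edgeR 10 passed without the 3 libraries highest in neutrophil markers (17.6% of all genes), and 11 without the libraries labelled Control_p53KO 3 and HFD_p53KO 7 (20.4%). Cyp7a1, the rate-limiting enzyme of bile acid synthesis, fell from 98.7 ± 41.1 CPM (n = 12) to 50.6 ± 17.2 CPM (n = 13), a log2 fold change of -0.96 (adjusted p = 0.00648). The vasopressin receptor Avpr1a had a log2 fold change of -1.10 and the methyltransferase Inmt of -0.97 (adjusted p = 0.0136 and 0.0469). Among those that rose, the cytochrome Cyp2a4 had 1.86 and the cell cycle kinase Wee1 0.59 (adjusted p = 0.00433 and 0.0490). The median log2 fold change of the 21 genes was 0.0020.

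Of 11 genes of lipid synthesis after feeding, 6 fell on HFD and none rose by edgeR, against the same shares of all genes (Acly, Elovl6, Pnpla3, Scd1, Acaca and Fasn), with a median log2 fold change of -0.87 over the 11. Hepatocyte markers moved the same way, 5 of 9 lower with a median of -0.63, and 4 of 7 erythroid markers rose. Their part in these falls was not tested. Acly, which makes acetyl-CoA for lipid synthesis, had -1.25 (adjusted p = 0.000853 by edgeR). Of 12 genes of fasting and glucocorticoids, Cpt1a, the entry enzyme of mitochondrial fat oxidation, and Angptl4 rose (log2 fold changes 0.58 and 0.98), and Tat and Ppargc1a fell (-0.99 and -0.62), by edgeR. Angptl4 did not pass without the 4 libraries highest in acute phase genes. Of 11 temperature genes 1 rose, Hspb1 (0.68, adjusted p = 0.0356 by edgeR), a share near the 9.71% of all genes that passed, and 0 passed without the same 4 libraries.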
